A study of Homo sapiens with 8 samples.

Results

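The genes described here encode 9 proteins of the basement membrane: the collagen XVIII chain COL18A1, the collagen IV chains COL4A1 and COL4A2, the laminin chains LAMA5, LAMB1, LAMC1 and LAMB3, the heparan sulfate proteoglycan perlecan (HSPG2) and the linker nidogen-1 (NID1). They were taken by name, as the rows of the expression tables whose gene symbol is one of these 9. The list was drawn up with earlier results of these data known. Counts of members beside the share of all tested genes are therefore descriptions. All 9 were found, 1 row each, among 27204 loci, and all 9 passed the filter on low values. RNA was sequenced from H1703 cells, a human line that the labels give as lung squamous cell carcinoma. The 4 groups, of 2 libraries each, were detached cells (labelled floating) with SPIB knockdown, detached control cells, attached cells with SPIB knockdown and attached control cells. The control cells carried a knockdown of luciferase, so that every group carried a knockdown. By the title of the series, the study was about SPIB, an ETS family transcription factor best known from B lymphocytes, and resistance to anoikis, the death of cells that lose their hold on the matrix. A note of 12 h of floating stands on all 8 samples, attached ones included, so that the time of detachment is known only as far as that note. No source used here says how the knockdown was made or whether the libraries of a group came from separate cultures, so p-values cover only the spread between libraries, which may be technical.

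The basement membrane is the thin sheet of matrix on which epithelial cells rest. Laminins are heterotrimers of an alpha, a beta and a gamma chain that bind integrins and dystroglycan on the cell and assemble into a network along its surface. Collagen IV, a trimer of alpha chains that in most tissues is made of COL4A1 and COL4A2 chains, forms a second, covalently linked network. Nidogen and perlecan connect both networks, and collagen XVIII is the precursor of the angiogenesis inhibitor endostatin. Epithelial cells that lose contact with this sheet lose the integrin signals that keep them alive.

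The start regions of 3 members are shown first, since the results below turn on these genes. No test below uses the sequences. COL4A1 and COL4A2 lie head to head and share the stretch between their starts, while COL18A1 has 2 annotated starts whose transcripts a gene-level value cannot tell apart. The sequences are RefSeq's, on build GRCh38.p14, and are written along the plus strand, which is the coding strand of COL4A2 and of COL18A1. The shared stretch between the collagen IV starts, chr13:110307158-110307283, holds 126 bases. The windows of COL18A1 are the 250 bases before each start, chr21:45404915-45405164 for the first and chr21:45455272-45455521 for the second. Capitals mark matches, on either strand, to any of 4 motifs. The GC box was searched as GGGCGG and the so-called CAAT box by its letters CCAAT. The TATA box was searched as TATAAA, and the core that factors of the ETS family bind, with flanking bases, as GAGGAA.
COL4A1 and COL4A2, shared: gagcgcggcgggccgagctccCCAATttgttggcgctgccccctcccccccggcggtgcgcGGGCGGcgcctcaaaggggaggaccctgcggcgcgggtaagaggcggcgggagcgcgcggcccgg
COL18A1, first start: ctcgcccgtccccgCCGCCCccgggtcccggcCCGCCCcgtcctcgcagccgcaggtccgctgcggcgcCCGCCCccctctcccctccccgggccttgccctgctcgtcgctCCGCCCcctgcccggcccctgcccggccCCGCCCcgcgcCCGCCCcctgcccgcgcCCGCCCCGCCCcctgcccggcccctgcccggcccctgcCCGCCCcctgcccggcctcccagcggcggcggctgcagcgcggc
COL18A1, second start: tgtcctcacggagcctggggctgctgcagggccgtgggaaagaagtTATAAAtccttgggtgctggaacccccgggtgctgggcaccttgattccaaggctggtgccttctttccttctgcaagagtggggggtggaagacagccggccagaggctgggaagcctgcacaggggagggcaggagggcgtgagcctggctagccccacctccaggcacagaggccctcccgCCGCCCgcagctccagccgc

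The shared collagen IV stretch was 80.2% G or C and held 1 GC box and 1 CAAT box. The window before the first COL18A1 start was 88.4% G or C and held 9 GC boxes, overlapping ones counted. The window before the second was 66.4% G or C and held 1 GC box and 1 TATA box. Over 35116 RefSeq windows of 250 bases, 42.6% held a GC box, 32.0% a CAAT box, 10.7% a TATA box and 23.6% the GAGGAA word. The shared collagen IV stretch, at 126 bases, is shorter than these windows. The GAGGAA word occurred once in each of the windows of LAMB1, LAMC1, HSPG2 and NID1, and did not occur in those of COL18A1, COL4A1, COL4A2, LAMA5 and LAMB3. These are matches of letters and not sites of binding.

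Values were deposited as FPKM, fragments per kilobase of transcript scaled to the mapped fragments of the library, which allows levels to be compared between genes. FPKM summed to between 707883 and 786285 per library, and between 13022 and 13283 loci reached 1 FPKM. In 4 libraries, 1 of each group, a locus abundant in other libraries was listed at 0. These were also the libraries with the lower FPKM sum of their group. The libraries of a group thus differed in this respect, and the term for the FPKM sum used below stands for that split. The tables hold no read totals, so the absolute depth is unknown, but the steps of the lowest values put the ratio of reads between the deepest and the shallowest library at 1.60. SPIB is listed only in a locus merged with POLD1 and a clone-named gene, which stood at 41.8 to 52.5 FPKM in the knockdown libraries and 44.9 to 55.9 FPKM in the control libraries, so the knockdown itself could not be checked. Of the 5 squamous markers with a row of their own, TP63, DSG3 and PKP1 stayed below 1 FPKM in all libraries, while SOX2 stood at 0.734 to 2.68 FPKM and S100A2 at 3.74 to 9.33 FPKM. The keratins KRT5, KRT6A, KRT14 and KRT17 lie only in merged loci. The epithelial markers EPCAM and CDH1 also stayed below 1 FPKM. KRT8 stood at 11.5 to 20.0 FPKM and KRT18 at 46.2 to 90.0 FPKM. The summed level of the 8 epithelial markers with a row of their own was 64.3 to 72.4 FPKM in detached and 97.5 to 116.9 FPKM in attached libraries. Most of this sum was KRT18 and KRT8. The part of the sum in the detachment results was not tested. Endothelial markers, 4 of 7 with a row of their own, were all below 1 FPKM and summed to at most 0.293 FPKM. Among fibroblast markers, THY1 stood at 103.8 to 138.2 FPKM, COL1A1 at 1.46 to 3.90 FPKM, and COL3A1, PDGFRB, DCN and LUM below 1 FPKM. Of the 6 leukocyte markers with a row of their own, 4 stayed below 1 FPKM, while CSF1R stood at 2.71 to 5.68 FPKM and LYZ at 0 to 1.78 FPKM. The summed level of all 6 was 2.71 to 7.32 FPKM over the libraries, most of it CSF1R.

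All 9 genes were expressed, at levels from the lower to the upper part of the tested genes. LAMA5, the alpha 5 laminin chain that carries the main integrin-binding site of its trimers, was highest, with a mean of 65.5 FPKM over the 8 libraries, at the 85.3 percentile of 13438 tested genes. LAMC1, the gamma chain of most laminins, averaged 56.9 FPKM, NID1 47.7 FPKM and COL18A1 40.3 FPKM. The collagen IV chain COL4A2 followed at 16.3 FPKM, the beta 1 laminin chain LAMB1 at 14.1 FPKM, COL4A1 at 10.1 FPKM and HSPG2 at 7.72 FPKM. LAMB3, the beta chain of the laminin of epithelial anchoring sites, was lowest at 2.05 FPKM, at the 15.9 percentile. Between neighbours in this order the ranges over the 8 libraries overlapped, except between COL18A1 and COL4A2 and between HSPG2 and LAMB3. Within libraries, each of LAMA5, LAMC1 and NID1 was above the next gene in 7 of 8, COL4A2 was above LAMB1 in 6 of 8, and each other neighbour held its place in 8 of 8.

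**Figure D1:**
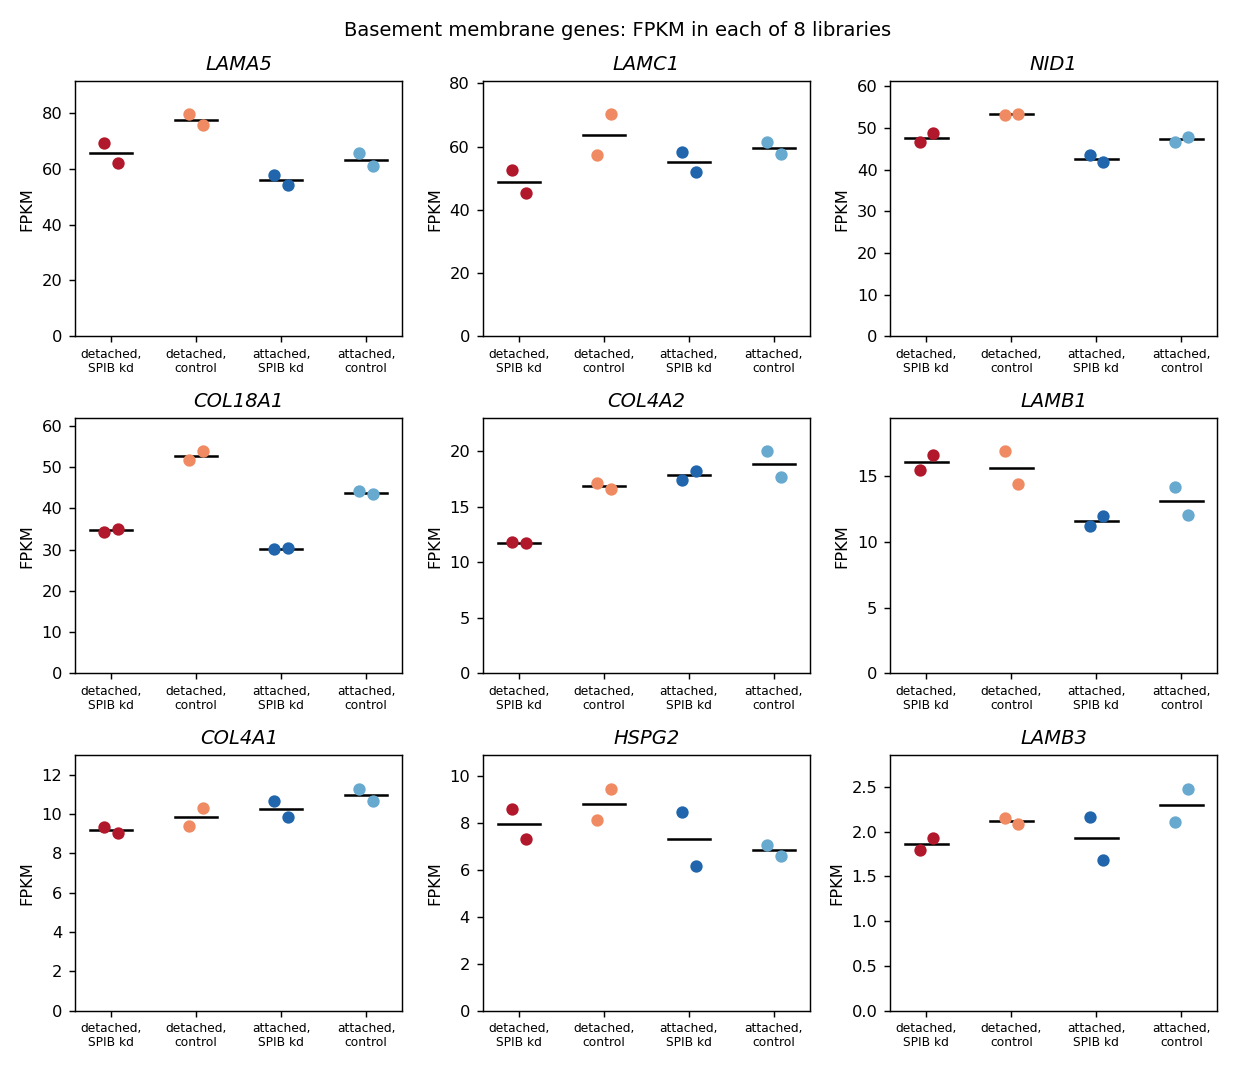
FPKM of the 9 basement membrane genes in each library, 1 panel a gene with its own linear axis from 0, ordered by mean over 8 libraries. Points are libraries, short lines are the means of 2 libraries, and kd stands for knockdown. The 4 SPIB-knockdown points of COL18A1, at 30.1 to 35.1 FPKM, sit below its 4 control points, at 43.4 to 53.8 FPKM.

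The chains that would complete the trimers were unevenly present. LAMA3, an alpha chain that pairs with LAMB3, stood at 0.509 to 0.847 FPKM and was below the filter of 1 FPKM in at least 2 libraries. For trimers with LAMC1, LAMA5 and LAMB1 were both expressed, and LAMB2 lies only in a merged locus whose value cannot be split. LAMC3, another gamma chain, stood at 12.2 to 18.6 FPKM. The second nidogen, NID2, stood at 0.119 to 0.626 FPKM and was below the filter, against 41.8 to 53.3 FPKM for NID1. Of the other collagen IV chains, COL4A5 stood at 4.99 to 7.32 FPKM, and COL4A3, COL4A4 and COL4A6 did not reach the filter. The proteoglycan agrin (AGRN), which links laminin to the cell surface, was expressed at 19.7 to 28.3 FPKM, above HSPG2 in every library.

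COL18A1 was the member that differed most clearly with SPIB knockdown. In attached cells it stood at 30.1 and 30.3 FPKM with the knockdown, against 44.3 and 43.4 FPKM in control cells. In detached cells it stood at 34.2 and 35.1 FPKM with the knockdown, against 51.6 and 53.8 FPKM in control cells. Every knockdown library was thus below every control library, whatever the attachment state. Of the tested genes, 4.51% were lower without overlap in the 4 knockdown libraries than in the 4 control libraries and 3.47% were higher, and COL18A1 was the 1 member among them. The changes were tested with limma on log2(FPKM + 1), fitted to all tested genes, with Benjamini-Hochberg adjustment and a threshold of 0.05. COL18A1 fell by 0.52 ± 0.05 on the log2 scale (SE) in attached cells, with an adjusted p of 0.00538, and by 0.59 ± 0.05 in detached cells, with an adjusted p of 0.00447. In bulk RNA, fewer cells that express a gene and less RNA per cell cannot be told apart. On the scale of FPKM + 1 these are ratios of 0.696 and 0.664. Among all tested genes the change in detached cells lay at the 1.32 percentile and that in attached cells at the 2.59 percentile.

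COL18A1 was the only one of the 9 called in either of these comparisons, 1 of 9 in each. In attached cells 1.85% of all tested genes were called (0.64% higher, 1.21% lower), and in detached cells 0.737% were (0.0744% higher, 0.662% lower). Its knockdown effect in detached cells was 0.07 lower on the log2 scale than in attached cells, with a 95% interval of the difference from -0.24 to 0.10 and an adjusted p of 0.905. The call in attached cells was lost without the first attached control library (adjusted p = 0.0568), and that in detached cells without the first detached control library (adjusted p = 0.0604). Both were also lost when only the 4 libraries of the comparison were fitted, with adjusted p of 0.0662 in attached and 0.0836 in detached cells, while over both attachment states COL18A1 kept its call without each single library (adjusted p up to 0.00564). The COL18A1 locus, chr21:46825031-46938896 on hg19, overlaps that of the folate transporter SLC19A1 by 25411 bases. SLC19A1 stood at 29.6 to 43.5 FPKM in knockdown and 29.9 to 40.6 FPKM in control libraries. Its knockdown log2 fold changes were 0.00 in attached and 0.03 in detached cells, and neither was called. The antisense gene COL18A1-AS1 stood at no more than 0.234 FPKM.

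**Figure D2:**
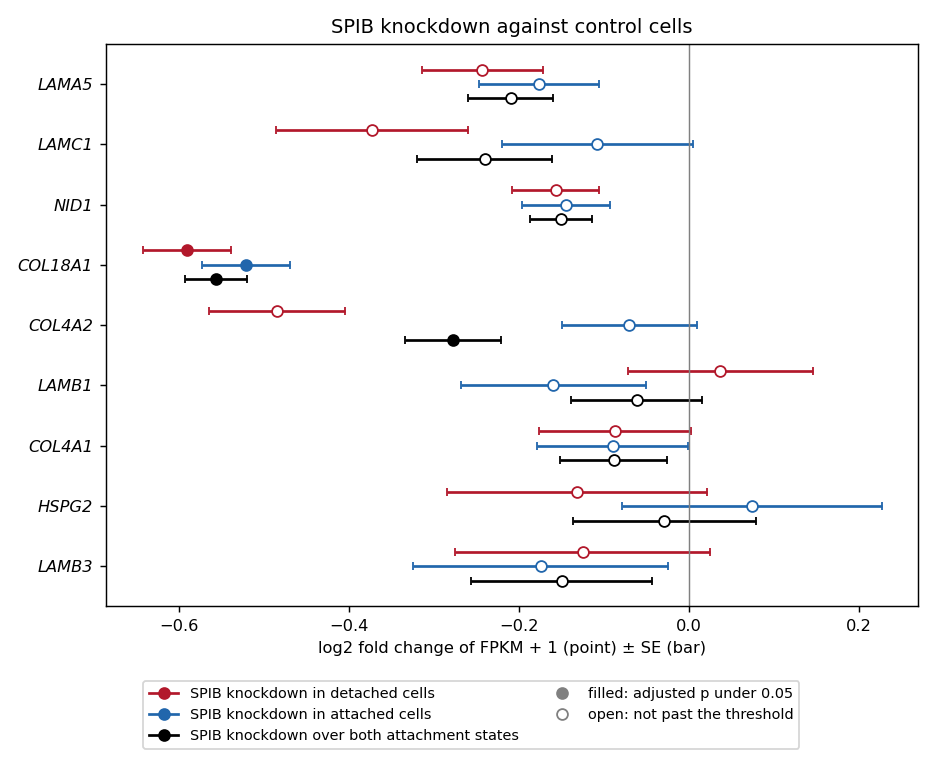
Log2 fold change of FPKM + 1, SPIB knockdown over control, for each gene in detached cells, in attached cells and over both attachment states. Points are limma estimates, bars are standard errors, and filled points have an adjusted p under 0.05. COL18A1 lies at -0.59 in detached and -0.52 in attached cells, and COL4A2 is the other gene with a filled point, over both states.

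Taken over both attachment states, 2 of the 9 genes fell with SPIB knockdown and none rose, where 4.24% of all tested genes were called (1.4% higher, 2.84% lower). On the log2 scale COL18A1 fell by 0.56 ± 0.04 (limma, adjusted p = 0.000516) and COL4A2 by 0.28 ± 0.06 (adjusted p = 0.0396). The fold changes of all 9 genes were below 0, with a median of -0.15, against a median of 0.00 over all tested genes, of which 6877 of 13438 were above 0. The genes nearest the threshold were LAMA5 at -0.21 ± 0.05 (adjusted p = 0.0675) and NID1 at -0.15 ± 0.04 (adjusted p = 0.0700), followed by LAMC1 at -0.24 ± 0.08 (adjusted p = 0.154). The COL4A2 call was lost without any single one of the 8 libraries, with adjusted p between 0.052 and 0.127. It was also lost with no filter on low values (0.0783) and with no intensity trend (0.0678).

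LAMA5 stood at 69.0 and 61.9 FPKM in detached knockdown libraries and 79.5 and 75.7 FPKM in detached control libraries. In attached cells it stood at 57.6 and 54.1 FPKM with the knockdown and 65.8 and 60.8 FPKM in control cells. Within each attachment state both knockdown libraries were below both control libraries, but neither difference was called (adjusted p = 0.228 detached, 0.266 attached). NID1 showed the same order within each state. It stood at 46.5 and 48.8 FPKM in detached knockdown and 53.2 and 53.3 FPKM in detached control libraries, and at 43.4 and 41.8 FPKM in attached knockdown and 46.5 and 47.9 FPKM in attached control libraries. Its adjusted p was 0.285 in detached and 0.213 in attached cells. The share of all tested genes with such an order in both attachment states was not counted, so the order is a description.

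**Figure D3:**
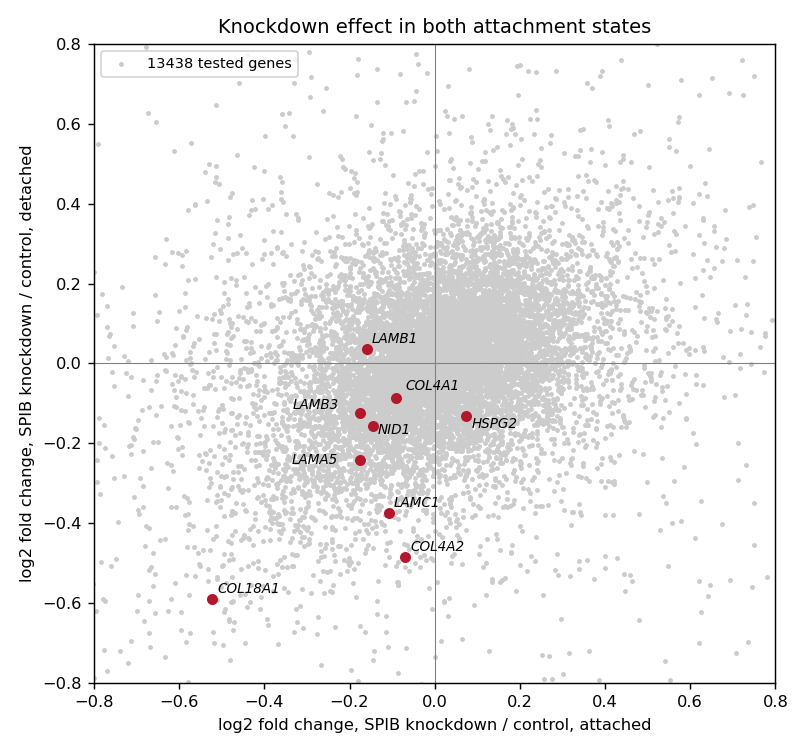
Log2 fold change of FPKM + 1 for SPIB knockdown over control, in detached cells (vertical) and attached cells (horizontal), for all 13438 tested genes (grey) and the 9 basement membrane genes (red). The axes end at 0.8 in either direction, and 294 genes lie outside them. COL18A1 is low on both axes, whereas COL4A2, at -0.48 and -0.07, is low on the vertical one.

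The collagen IV chains come from neighbouring genes, COL4A1 at chr13:110801318-110959875 and COL4A2 at chr13:110958159-111165379 on hg19, whose loci overlap by 1717 bases at the shared start. COL4A2 stood at 11.9 and 11.7 FPKM in detached knockdown cells, 17.2 and 16.6 FPKM in detached control cells, 17.5 and 18.2 FPKM in attached knockdown cells and 20.0 and 17.7 FPKM in attached control cells. The pair of detached knockdown libraries was the lowest and did not overlap with any other group. For how many of all tested genes this pair was likewise the lowest was not counted. COL4A1 stood at 9.35 and 9.02 FPKM in detached knockdown cells, 9.36 and 10.3 FPKM in detached control cells, 10.7 and 9.83 FPKM in attached knockdown cells and 11.3 and 10.6 FPKM in attached control cells. Its highest detached library, at 10.3 FPKM, lay above its lowest attached one, at 9.83 FPKM, and it was called in none of the comparisons.

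The ratio of COL4A2 to COL4A1, on the FPKM scale, was 1.28 ± 0.02 (SD, n = 2) in detached knockdown cells. It was 1.73 ± 0.16 in detached control cells, 1.75 ± 0.15 in attached knockdown cells and 1.72 ± 0.08 in attached control cells (SD, n = 2 each). By library it was 1.27 and 1.30 in detached knockdown cells and between 1.62 and 1.86 in the other 6 libraries. The ratio is a description and was not tested.

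**Figure D4:**
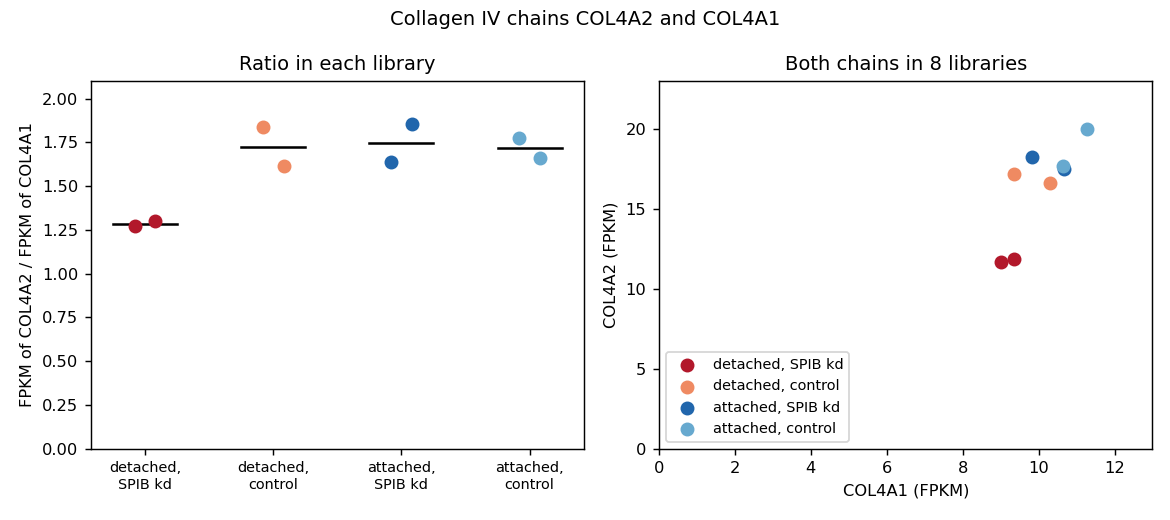
On the left, the ratio of COL4A2 to COL4A1 FPKM in each library by group, with the mean of 2 libraries as a line, and on the right, COL4A2 against COL4A1 in FPKM, where kd stands for knockdown. The detached knockdown libraries, at 1.27 and 1.30, lie below the other 6, at 1.62 to 1.86.

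On detachment of knockdown cells COL4A2 fell by 0.56 ± 0.08 on the log2 scale (limma, adjusted p = 0.0107). In control cells its detachment log2 fold change was -0.14 ± 0.08 (adjusted p = 0.357). Its knockdown log2 fold change was -0.48 ± 0.08 in detached cells, just outside the threshold (adjusted p = 0.0512), and -0.07 ± 0.08 in attached cells (adjusted p = 0.718). The interaction, the knockdown effect in detached minus that in attached cells, was -0.41 ± 0.11, with a 95% interval from -0.68 to -0.15 and an unadjusted p of 0.00716. Adjusted over all tested genes it had a p of 0.636, so the 2 effects are not shown to differ. No gene of the 13438 was called for an interaction by limma (0%), and 898 of them, COL4A2 as the 1 member, had an unadjusted p under 0.05. The interaction was -0.27 ± 0.16 for LAMC1 (adjusted p = 0.815).

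The detachment call of COL4A2 in knockdown cells was lost without the second attached knockdown library (adjusted p = 0.0655), without the first (0.0532) or the second (0.0738) detached knockdown library, and when only the 4 libraries of the comparison were fitted (0.0518). Its knockdown difference in detached cells passed the threshold with a pseudocount of 0.1 (adjusted p = 0.0481), with a filter at 5 FPKM (0.0339) and with values rescaled after leaving out small RNA, rRNA and mitochondrial genes (0.0451).

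Detachment was tested in each knockdown state separately and then over both. In detached against attached control cells, COL18A1 rose, 1 of 9 genes called where 3.15% of all tested genes were (0.893% higher, 2.25% lower). The rise was 0.26 ± 0.05 on the log2 scale (limma, adjusted p = 0.0454). The call was lost without any single library (adjusted p between 0.0709 and 0.235), with no filter on low values (0.0605), with no intensity trend (0.103), with a term for the lower or higher FPKM sum of the group (0.07) and with only the 4 libraries of the comparison (0.11). In detached against attached knockdown cells COL4A2 fell, as given above, again 1 of 9 where 7.11% of all tested genes were called (2.05% higher, 5.06% lower).

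Over both knockdown states 4 of the 9 genes rose on detachment and 1 fell, where 5.48% of all tested genes rose and 10.1% fell, 15.6% in all. LAMB1 rose by 0.34 ± 0.08 on the log2 scale (limma, adjusted p = 0.0263), LAMA5 by 0.26 ± 0.05 (adjusted p = 0.0157), COL18A1 by 0.23 ± 0.04 (adjusted p = 0.00811) and NID1 by 0.16 ± 0.04 (adjusted p = 0.0253). COL4A2 fell by 0.35 ± 0.06 (adjusted p = 0.00774). The median over the 9 genes was 0.16, and over all tested genes it was -0.01. The 4 genes that did not pass were HSPG2 at 0.22 ± 0.11 (adjusted p = 0.219), COL4A1 at -0.14 ± 0.06 (0.171), LAMB3 at -0.05 ± 0.11 (0.782) and LAMC1 at -0.04 ± 0.08 (0.757). The LAMC1 value was above 0 under quantile normalization and under rescaling.

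**Figure D5:**
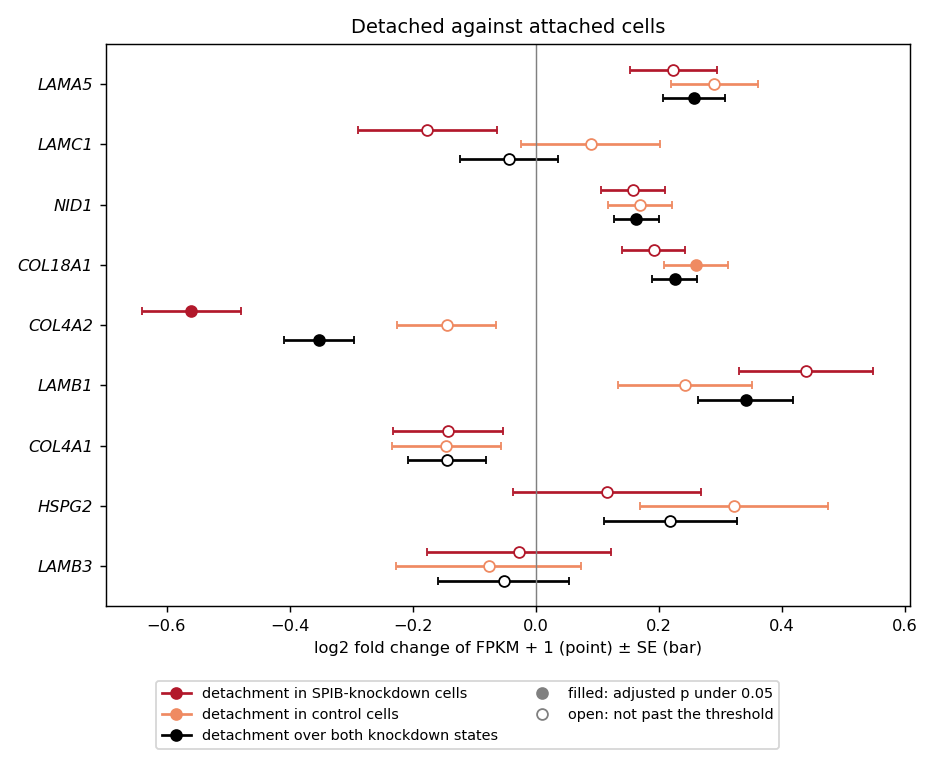
Log2 fold change of FPKM + 1, detached over attached cells, for each gene in SPIB-knockdown cells, in control cells and over both knockdown states. Points are limma estimates, bars are standard errors, and filled points have an adjusted p under 0.05. The pooled points of LAMA5, NID1, COL18A1 and LAMB1 lie to the right of 0 and that of COL4A2, at -0.35, lies to the left.

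LAMB1, one of the beta chains that pair with LAMC1, stood at 15.5 and 16.6 FPKM in detached knockdown libraries and 16.9 and 14.4 FPKM in detached control libraries. It stood at 11.2 and 12.0 FPKM in attached knockdown libraries and 14.1 and 12.0 FPKM in attached control libraries. All 4 detached libraries were above all 4 attached ones. LAMC1 stood at 52.5 and 45.3 FPKM in detached knockdown, 57.3 and 70.2 FPKM in detached control, 58.5 and 52.1 FPKM in attached knockdown and 61.4 and 57.7 FPKM in attached control libraries. The detached control pair differed from each other more than any other pair of this gene, and the groups overlapped. The ratio of LAMB1 to LAMC1 averaged 0.331 in detached knockdown, 0.250 in detached control, 0.210 in attached knockdown and 0.219 in attached control cells, as a description.

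Of all tested genes 6.79% were higher without overlap in the 4 detached libraries and 11.6% were lower, and LAMB1 was the 1 member higher and COL4A2 the 1 member lower. In an exact two-sided permutation test of the 4 detached against the 4 attached libraries, which takes no account of knockdown state, groups that do not overlap give the smallest p that 70 splits allow, 0.02857, so the p of these 2 genes restates that. By the same exact test, unadjusted for 9 genes, COL4A1 and LAMA5 had p = 0.05714, NID1 0.08571, HSPG2 0.1143, COL18A1 0.4, LAMB3 0.5429 and LAMC1 0.7429. COL18A1, LAMA5 and NID1 were each higher in detached than in attached cells within both knockdown states, and their 4 detached libraries overlapped the attached ones across states. How many of all tested genes showed this order within both states was not counted, so it is a description.

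COL18A1 and COL4A2 kept their call over both knockdown states without each library in turn. LAMA5 lost it without the second attached control (adjusted p = 0.055), the second attached knockdown (0.0513) or the first detached control library (0.054). LAMB1 lost it without any of 6 libraries, all but the first attached control and the second detached control (adjusted p between 0.0542 and 0.0846), and with no filter on low values (0.0675). NID1 lost it without any of 6 libraries, all but the first attached knockdown and the first detached knockdown (adjusted p between 0.0578 and 0.0813), and with no intensity trend (0.06). The LAMA5 locus, chr20:60877557-60942417 on hg19, overlaps that of ADRM1 by 6363 bases, and the LAMB1 locus, chr7:107563309-107644553, overlaps that of DLD by 8867 bases. Detachment log2 fold changes over both states were -0.05 for ADRM1 and -0.12 for DLD, and neither was called. For SLC19A1, which overlaps COL18A1, the value was -0.29 (adjusted p = 0.055). No source used here says whether the libraries were stranded, so reads of overlapping loci may not be told apart.

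HSPG2 stood at 8.57 and 7.31 FPKM in detached knockdown, 8.13 and 9.45 FPKM in detached control, 8.46 and 6.16 FPKM in attached knockdown and 7.05 and 6.59 FPKM in attached control libraries. Its largest spread was within the attached knockdown pair, and it was called in no comparison. LAMB3 stood at 1.79 and 1.93 FPKM in detached knockdown, 2.16 and 2.08 FPKM in detached control, 2.17 and 1.68 FPKM in attached knockdown and 2.11 and 2.48 FPKM in attached control libraries. At this level log2(FPKM + 1) understates change, and LAMB3 was called in no comparison either.

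Across the 8 libraries the members fell into no single pattern. The highest Pearson correlations of log2(FPKM + 1) between members were 0.892 for LAMA5 with NID1, 0.885 for COL18A1 with NID1 and 0.823 for COL18A1 with LAMA5. That of COL4A1 with COL4A2 was 0.777, and the lowest was -0.646 for COL4A1 with LAMB1. The points of these correlations share the 4 groups, so they carry no p. Among 10542 other tested genes, those most like COL18A1 were RAB11B (0.994), TTYH3 (0.993) and CD9 (0.989). Those most like NID1 were MSRB1 (0.993), HBP1 (0.987) and IQCE (0.983). The most similar gene was IRAK2 for LAMA5 (0.969), SNHG9 for COL4A2 (0.980), SKA2 for COL4A1 (0.978), C14orf132 for LAMB1 (0.971), IL17RA for HSPG2 (0.964) and ERBB2 for LAMB3 (0.940). For LAMC1 it was LAMC3 (0.951), its fellow gamma chain. These values were picked as the highest among 10542 genes over 8 libraries, so high values can arise without a link between the genes.

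Of 27 other basement membrane genes, 9 were tested, and over both knockdown states 1 rose on detachment and none fell, with a median log2 fold change of 0.09 against -0.01 over all tested genes, of which 5.48% rose and 10.1% fell. The gene that rose was LAMA4, an alpha chain of laminins of vessel and muscle basement membranes, at 2.17 and 1.57 FPKM in detached knockdown, 2.33 and 1.89 FPKM in detached control, 0.710 and 1.89 FPKM in attached knockdown and 0.533 and 0.506 FPKM in attached control libraries. It rose by 0.69 ± 0.19 on the log2 scale (limma, adjusted p = 0.0449), with the attached knockdown pair far apart. With SPIB knockdown over both attachment states 1 of these genes fell, FBLN1, a matrix protein that binds laminin and nidogen, by 0.20 ± 0.04 (adjusted p = 0.0431), where 2.84% of all tested genes fell. None of the 9 was called for knockdown in attached or in detached cells alone, or for detachment in either state alone. Of all tested genes, 1.85% were called for knockdown in attached and 0.737% in detached cells. For detachment, 3.15% were called in control and 7.11% in knockdown cells.

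Of 16 receptors for basement membrane proteins, 13 were tested. DAG1, the precursor of dystroglycan, which binds laminin, agrin and perlecan, fell with SPIB knockdown in both attachment states. It stood at 49.2 and 49.5 FPKM in detached knockdown against 62.0 and 63.3 FPKM in detached control libraries. In attached cells it stood at 50.04 and 50.9 FPKM with the knockdown against 66.1 and 66.3 FPKM in control libraries. The fall was 0.34 ± 0.04 on the log2 scale in detached (adjusted p = 0.0227) and 0.39 ± 0.04 in attached cells (adjusted p = 0.00907).

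ITGA6, the alpha 6 integrin subunit of laminin receptors, fell on detachment by 0.70 ± 0.05 in knockdown cells (adjusted p = 0.000546) and by 0.24 ± 0.05 in control cells (adjusted p = 0.0405). It stood at 102.6 and 100.9 FPKM in detached knockdown, 97.4 and 93.1 FPKM in detached control, 161.7 and 169.5 FPKM in attached knockdown and 110.8 and 114.7 FPKM in attached control libraries. The attached knockdown libraries stood above all others, and ITGA6 rose there by 0.55 ± 0.05 with SPIB knockdown (adjusted p = 0.0035). In detached cells its knockdown log2 fold change was 0.10 ± 0.05 (adjusted p = 0.478), and its interaction of -0.46 ± 0.06 was not called (adjusted p = 0.375).

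ITGA2, the alpha 2 subunit of a receptor for collagen and laminin, rose by 0.67 ± 0.10 on detachment of control cells (adjusted p = 0.0218) and by 0.60 ± 0.10 with SPIB knockdown in attached cells (adjusted p = 0.0382). DDR1, a receptor tyrosine kinase that binds collagen, rose on detachment by 0.22 ± 0.04 in knockdown cells (adjusted p = 0.0226) and by 0.47 ± 0.04 in control cells (adjusted p = 0.00243). With SPIB knockdown DDR1 fell in detached cells by 0.27 ± 0.04 (adjusted p = 0.0375). SDC4, a cell surface heparan sulfate proteoglycan, rose by 0.20 ± 0.04 with SPIB knockdown over both attachment states (adjusted p = 0.0418). Over both knockdown states, 2 of the 13 receptor genes rose on detachment and 1 fell, with a median log2 fold change of 0.01, where 5.48% of all tested genes rose and 10.1% fell. Over both attachment states, 2 rose with SPIB knockdown, ITGA6 and SDC4, and 2 fell, DAG1 and DDR1, where 1.4% of all tested genes rose and 2.84% fell.

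A list of genes for the folding, modification and crosslinking of these chains held 26 symbols, some of them older and newer names of the same gene. Of these, 17 were tested. Over both knockdown states 3 rose on detachment and 1 fell, against 5.48% and 10.1% of all tested genes, with a median log2 fold change of 0.03. The prolyl 4-hydroxylase subunits P4HA2, by 0.50 ± 0.06 (adjusted p = 0.00326, limma), and P4HA1, by 0.38 ± 0.06 (adjusted p = 0.00614), rose, as did the lysyl hydroxylase PLOD1, by 0.27 ± 0.05 (adjusted p = 0.0131). These enzymes hydroxylate collagen chains. LEPREL1, the prolyl 3-hydroxylase also named P3H2, which acts on collagen IV, fell by 0.43 ± 0.04 (adjusted p = 0.000887). It stood at 95.7 and 94.7 FPKM in detached knockdown, 109.0 and 101.9 FPKM in detached control, 127.7 and 138.1 FPKM in attached knockdown and 137.8 and 137.4 FPKM in attached control libraries, with no overlap between detached and attached. With SPIB knockdown over both attachment states, PLOD1 fell by 0.23 ± 0.05 (adjusted p = 0.0477), and so did SERPINH1, the collagen chaperone HSP47, by 0.17 ± 0.03 (adjusted p = 0.023), where 2.84% of all tested genes fell.

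Of 21 genes for the breakdown of the basement membrane and its inhibitors, 11 were tested. Over both knockdown states 4 rose on detachment and none fell, against 5.48% and 10.1% of all tested genes, with a median log2 fold change of 0.25 against -0.01 over all tested genes. The lysosomal protease CTSL rose by 0.61 ± 0.03 (adjusted p = 6.99e-05, limma), and CTSB by 0.33 ± 0.04 (adjusted p = 0.00199). The matrix metalloproteinase MMP10 rose by 0.61 ± 0.12 (adjusted p = 0.0172) and the membrane-bound MMP15 by 0.42 ± 0.10 (adjusted p = 0.0302). CTSL stood at 315.1 and 311.2 FPKM in detached knockdown, 285.9 and 288.6 FPKM in detached control, 211.8 and 229.1 FPKM in attached knockdown and 175.0 and 173.5 FPKM in attached control libraries. Its groups did not overlap, and with SPIB knockdown CTSL rose in attached cells by 0.34 ± 0.04 (adjusted p = 0.0135).

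Of 20 genes of the interstitial matrix, which lies beyond the basement membrane, 8 were tested, none rose on detachment over both knockdown states and 2 fell, against 5.48% and 10.1% of all tested genes, with a median log2 fold change of 0.07. COL12A1, a collagen of fibril surfaces, fell by 0.60 ± 0.10 (adjusted p = 0.00922, limma), and COL5A2, a chain of fibrillar collagen V, by 0.18 ± 0.03 (adjusted p = 0.0119). COL5A2 stood at 236.8 and 243.2 FPKM in detached knockdown, 255.9 and 250.3 FPKM in detached control, 290.5 and 266.3 FPKM in attached knockdown and 281.9 and 281.0 FPKM in attached control libraries. None of the 8 was called with SPIB knockdown in either attachment state or over both. Of all tested genes, 1.85% were called in attached cells, 0.737% in detached cells and 4.24% over both.

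Without single libraries, the calls of ITGA2, LEPREL1, P4HA1, P4HA2, PLOD1, CTSL, CTSB, COL12A1 and COL5A2 on detachment over both knockdown states were kept in all 8 cases, as were those of ITGA6 and DDR1, and the calls of DAG1 and ITGA6 for SPIB knockdown over both attachment states. MMP10 was kept in 4 of 8 cases, being lost without the second library of any group (adjusted p up to 0.058). MMP15 was kept in 1 of 8, without the first detached control library (adjusted p up to 0.105 in the others), and LAMA4 in 1 of 8, without the second attached knockdown library (up to 0.123). The pooled knockdown calls of FBLN1, SDC4, PLOD1 and DDR1 were lost without any library (adjusted p up to 0.151), and that of SERPINH1 was kept only without the first detached knockdown library (up to 0.0858 in the others). The pooled detachment call of COL5A2 was also lost under quantile normalization and with no intensity trend (up to 0.115), and those of MMP10 (0.0583) and MMP15 (0.0944 or less) with no filter on low values, and that of MMP15 under quantile normalization as well. Over all settings other than left-out libraries, the pooled call of LAMA4 was kept in 4 of 8 (adjusted p up to 0.119). The pooled knockdown calls were kept in 4 of 9 for PLOD1 (up to 0.112), in 6 of 9 for FBLN1, SDC4 and DDR1 (up to 0.136) and in 8 of 9 for SERPINH1 (up to 0.104).

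In single comparisons, the calls of ITGA6 for detachment of control cells (adjusted p up to 0.207), of ITGA2 for knockdown in attached cells (up to 0.167) and of DDR1 for knockdown in detached cells (up to 0.228) were lost without any library. DAG1 lost its call in attached cells without any of the 4 attached libraries (up to 0.0785). In detached cells DAG1 lost it without any library but the attached knockdown ones (up to 0.196). ITGA2 for detachment of control cells and DDR1 for detachment of knockdown cells lost their calls without any of the 4 libraries compared (up to 0.123 for each). CTSL for knockdown in attached cells lost its call without either attached control library or the second attached knockdown library (up to 0.111). The calls of ITGA6 for detachment of knockdown cells and for knockdown in attached cells, and that of DDR1 for detachment of control cells, were kept in all 8 cases. Over the other settings, the call of ITGA6 for detachment of control cells was kept in 3 of 10 (up to 0.131), that of DDR1 for knockdown in detached cells in 4 of 10 (up to 0.201) and that of ITGA2 for knockdown in attached cells in 6 of 10 (up to 0.164). DAG1 kept its call in detached cells in 7 of 10, losing it with no intensity trend, with the FPKM-sum term and with only the groups compared (up to 0.152). In 8 of 10, all but 2 settings each, calls were kept for DAG1 in attached cells, CTSL for knockdown in attached cells, ITGA2 for detachment of control cells and DDR1 for detachment of knockdown cells (up to 0.108).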

How the data were processed

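The members, the gene lists and the tests were chosen with earlier results of these data known. The authors deposited FPKM values in 1 table per library, with 28590 loci at hg19 positions. HISAT and Cuffnorm were run on build hg19, per the submitters' processing notes, which name no versions. Of the loci, 1673 had no symbol and 1961 merged several symbols, whose value cannot be split. Rows of 1 symbol were summed, which left 27204 loci.

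From these, log2(FPKM + 1) was computed for loci that reached 1 FPKM in at least 2 of 8 libraries (13438, of which 1642 were merged loci). limma 3.58.1 in R 4.3.3 (lmFit with 1 mean per group, contrasts.fit, eBayes with trend) took in all 8 libraries and had 4 residual plus 3.42 prior degrees of freedom. Two-sided tests were used, with Benjamini-Hochberg adjustment over all tested loci for each contrast, and "rose" and "fell" are used at an adjusted p under 0.05. The fit was tested on simulated data. Contrasts that share a group are not independent. Low genes are measured more surely in the deeper libraries, and FPKM tables give no counts for an interval.

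Named genes were the 9 members, up to 4 called genes of each other list with the smallest adjusted p in the detachment contrasts and in the knockdown contrasts within an attachment state, partner chains of the members' trimers, and the 3 genes most correlated with each member. FBLN1, SDC4 and SERPINH1, with other chains and markers given by level alone, were named after their values were seen. Some genes that meet the rule for naming are left out of the text. Alternatives were another pseudocount, other filters, other scalings, no trend, the replicate block, a term for the FPKM sum, only the groups compared, and each library left out. Promoter windows came from the RefSeq table on GRCh38.p14 and were not joined to the hg19 positions.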

Additional observations from a re-analysis of the deposited data

How the results depend on the processing

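Each of 57 values of the 9 genes was recomputed under up to 18 settings, 999 values in all. Of these, 919 kept direction and side of the threshold, 49 dropped a call, 13 gained one and 18 changed sign, none of the 18 with a call in either fit. For each lost or gained call the cause was not tested.

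Counts of called genes among the 9 moved as follows. Detachment of control cells had 1, and 0 with no filter, no trend, the FPKM-sum term or only the groups compared, 2 under quantile normalization (COL18A1 and LAMA5), and 0 without each single library. Detachment of knockdown cells had 1, then 2 with a filter at 5 FPKM (LAMB1 added), 3 under quantile normalization (COL18A1 and LAMA5 added), 3 when rescaled (COL18A1 and LAMB1 added), 2 with the replicate block (LAMA5 added), 0 with only the groups compared, and 0 to 1 without single libraries. Detachment over both states had 5, and 2 to 4 without single libraries. Knockdown in attached cells had 1, and 0 with only the groups compared, and 0 to 1 without single libraries. Knockdown in detached cells had 1, then 2 with a pseudocount of 0.1, a filter at 5 FPKM or rescaling, 0 with only the groups compared, and 0 to 1 without single libraries. Knockdown over both states had 2, then 3 with a filter at 5 FPKM (LAMA5 added), and 1 with no filter, with no trend and without each single library. The interaction had 0 throughout.

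The log2 fold changes that crossed 0 were small. On detachment, LAMB3 was 0.010 in knockdown cells when rescaled, and LAMC1 over both states was 0.019 under quantile normalization and 0.0046 when rescaled. Without single libraries, LAMB3 ranged from -0.16 to 0.0056 in control cells, -0.15 to 0.093 in knockdown cells and -0.11 to 0.0084 over both. LAMC1 ranged from -0.055 to 0.23 in control cells and -0.12 to 0.029 over both, and HSPG2 from -0.085 to 0.32 in knockdown cells. With SPIB knockdown, COL4A2 ranged from -0.16 to 0.015 and HSPG2 from -0.13 to 0.27 in attached cells, LAMB1 from -0.070 to 0.14 in detached cells and HSPG2 from -0.13 to 0.071 over both.

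The deviations of same-numbered libraries correlated at 0.174 to 0.267 over the 3 pairs among attached control, detached control and detached knockdown cells, and at -0.185 to -0.139 over the 3 pairs with attached knockdown cells, so the numbers as given do not pair the libraries. With the replicate block, detachment of control cells had 1 call, LAMA5 (adjusted p = 0.0377), in place of COL18A1 (0.0582), and knockdown over both states had 2, with LAMA5 (0.0254) in place of COL4A2 (0.052). All-gene calls under the block were within 1.5 times those reported, such as 334 for detachment of control cells. Among listed genes the block ended the calls of ITGA6 for detachment of control cells, LAMA4 for detachment over both states, ITGA2 for knockdown in attached cells, DDR1 in detached cells and PLOD1 over both. The term for the lower or higher FPKM sum equals crossed numbers in attached knockdown cells, and with it all-gene calls were 251 for detachment of control cells against 423 without it. All-gene calls ranged over the settings from 56 to 582 for detachment of control cells (423 as reported), 151 to 1123 of knockdown cells (956) and 1101 to 2158 over both (2093). For knockdown they ranged from 28 to 301 in attached (248), 6 to 146 in detached (99) and 223 to 655 over both (570), and for the interaction from 0 to 3 (0). Adding merged loci gave no value, since no merged locus holds a symbol of the 9 genes. With 2 libraries a group, leaving 1 out assumes that the lone one varies like the others.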
